A study of Mus musculus with 1187 samples.

Results

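Angpt2, Tek, Tie1 and Ptprb encode the endothelial parts of the angiopoietin and TIE receptor system, and are 4 of the 46517 genes counted in single endothelial cells of the mouse brain. They were chosen as members of this system with their levels by plate and by arterial or venous transcript in these cells already seen. All values for them are therefore a description, without a test. The cells came from adult C57BL/6 mice, 3 months old according to the study's design, that carried the Pdgfb ret allele together with a Cldn5-GFP and a Cspg4-DsRed reporter. The ret allele removes the retention motif of PDGF-B, the factor by which endothelium recruits pericytes, and is a germline allele, so it is not restricted to endothelium. Cells positive for GFP and negative for DsRed were sorted singly into plates and made into Smart-seq2 libraries, 1 library per well, with no molecular identifiers. The labels count 590 cells of Pdgfb ret/+ mice and 597 cells of Pdgfb ret/ret mice, whose brains are short of pericytes; ret/+ cells, the controls, also carry 1 ret allele. The labels name no animal.

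Each column of the table carries a plate and a well in its name, whereas the labels give cells a running number, so no column was matched to a genotype. The 1187 cells, on plates 521, 522, 523 and 524 (300, 290, 285 and 312 cells), are 1 pooled sample. Whether plates differ by genotype, animal or handling cannot be told apart here, and the main results are given plate by plate. Cells had 100779 to 584112 gene-assigned reads (median 360947), and 0 columns were copies of one another. All 8 endothelial markers checked, Cldn5 and Pecam1 among them, were at or above 20 reads per 1000000 (counts scaled to library size, CPM), and together reached 12486 to 13643 CPM by plate. The 10 pericyte markers together gave 17.6, 19.0, 140 and 76.7 CPM on the 4 plates in order, and 28 cells held 3 or more markers of another cell type.

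Angiopoietin-1, made largely by pericytes and other mural cells, binds the receptor tyrosine kinase TIE2 (gene Tek) on endothelium and keeps vessels quiescent. Angiopoietin-2 (Angpt2) is made by endothelium itself, is stored in Weibel-Palade bodies, and can act against angiopoietin-1 at TIE2, depending on context. TIE1 is a related receptor that pairs with TIE2, and the phosphatase VE-PTP (Ptprb) removes phosphate from TIE2 and from partners of VE-cadherin. TIE2 signals through PI3K and AKT, which keep the transcription factor FOXO1 out of the nucleus; FOXO1 in turn activates Angpt2. In adult brain, Angpt2 is usually low in resting vessels and is known from sprouting endothelium.

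On GRCm38 in GENCODE M21, Angpt2 lies on chromosome 8 at 18690263 to 18741562, minus strand, within the span of Mcph1 on the plus strand, with no shared exon. Mcph1 was at 24.7, 12.5, 6.37 and 19.0 CPM on plates 521 to 524, well under Angpt2 on the first 3 of these plates and closer to it on plate 524. Tek lies on chromosome 4 at 94739289 to 94874976, plus strand, Tie1 on chromosome 4 at 118471191 to 118490061, minus strand, and Ptprb on chromosome 10 at 116275523 to 116389535, plus strand. No exon of these 4 genes overlaps an exon of another gene. The promoter of Tek is shown because Tek was the receptor gene whose level differed most consistently between the cells described below, and because ETS factors are established activators of endothelial genes. The 250 bases before its start are from RefSeq (GRCm38.p6, chr4:94739039-94739288, plus strand), 5′ to 3′, with the ETS core (GGAA, or TTCC on the other strand) in capitals.
Tek: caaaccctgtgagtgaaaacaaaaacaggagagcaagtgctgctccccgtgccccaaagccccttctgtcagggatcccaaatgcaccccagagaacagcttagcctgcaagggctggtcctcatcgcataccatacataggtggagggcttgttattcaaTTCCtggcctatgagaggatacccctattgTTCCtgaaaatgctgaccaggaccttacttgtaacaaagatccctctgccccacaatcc
The window held 2 ETS cores, both on the minus strand. Of 32851 promoter windows in the table, 93.4% held at least 1 ETS core and 76.8% held 2 or more. Searched on both strands, the SOX motif ACAAAG was found 1 time, and 16.5% of windows held it. The GATA motif GATAAG, held by 6.55% of windows, was not found. The FOX motif GTAAACA, held by 3.17% of windows, was not found. No motif searched overlapped another in this window. Such matches describe the letters and no binding.

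All 4 genes were read in these cells, Tek, Tie1 and Ptprb (together called the 3 receptor genes here) in nearly every cell and Angpt2 in a minority. Over all cells Angpt2 stood at 221 CPM (95% counting interval 220 to 223; 122 CPM without plate 521 and 289 CPM without plate 524), Tek at 1159 CPM (1155 to 1162), Tie1 at 765 CPM (762 to 767) and Ptprb at 1947 CPM (1943 to 1952). Per kilobase of exon, the scale on which genes can be set side by side, the order was Tek with 246, Tie1 with 156, Ptprb with 146 and Angpt2 with 60.0 CPM per kb. The order of Tie1 and Ptprb was reversed on 2 of 4 plates: Ptprb was at 186 and Tie1 at 157 CPM per kb on plate 521, and at 132 and 128 CPM per kb on plate 523. With each cell thinned to 100000 reads, a read of Ptprb was found in 98.5% of cells, of Tie1 in 96.3%, of Tek in 95.0% and of Angpt2 in 32.4% (exact binomial interval 29.8 to 35.2%). Reads are not independent molecules in such libraries, so intervals cover counting error only.

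The other TIE ligands were nearly silent in these cells. Angpt1, the agonist that comes from mural cells, was at 1.12 CPM and was seen in 1.01% of cells after thinning. Angpt4 was at 0.127 CPM, Svep1, reported to bind TIE1, at 1.18 CPM with a read in 4.04% of cells, and Lect2, also reported to bind TIE1, had 0 reads, which allows a share of cells with a read of up to 0.253% (3 counts of the total). Angpt2 was thus the only one of the 5 listed ligands above 20 CPM.

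Angpt2 differed between plates far more than the receptor genes did. It was at 508 CPM on plate 521, 299 CPM on plate 522, 48.4 CPM on plate 523 and 29.9 CPM on plate 524, a 17.0-fold range. The counting intervals of these 4 levels do not overlap. Both the share of cells with a read and the level within them differed. At fixed depth, a read of Angpt2 was found in 58.0% of cells on plate 521, 44.5% on plate 522, 15.1% on plate 523 and 12.5% on plate 524, a 4.64-fold range. In cells with such a read the level was 899, 661, 308 and 251 CPM on plates 521 to 524, a 3.58-fold range. Plates 521 and 522 therefore held more cells with Angpt2 and more of it in each. The 17.0-fold range became 9.98-fold without plate 521 and 10.5-fold without plate 524. Pericyte markers were lower on plates 521 and 522 than on plates 523 and 524, and Apln, a peptide of sprouting endothelium, was at 341, 201, 0.00972 and 3.78 CPM on plates 521 to 524; their part in the Angpt2 range was not tested.

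Single cells carried Angpt2 very unevenly. The median cell held 17.3 CPM on plate 521, 2.48 CPM on plate 522 and 0 on plates 523 and 524, while the highest cell of each plate held 8259, 3264, 1642 and 1251 CPM. The upper quartile was 805 CPM on plate 521 and 309 CPM on plate 522, and 0 on both of the others. Among all cells, the 119 cells with the most Angpt2 (10%) held 75.3% of its summed CPM, against 23.4% for Tek, 23.5% for Tie1 and 22.7% for Ptprb in their own top 10%. On plates 523 and 524 the top 10% of cells held 98.9% and 98.8% of Angpt2.

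Tek ran in nearly the opposite plate order. It was at 924 CPM on plate 521, 1019 CPM on plate 522, 1377 CPM on plate 523 and 1313 CPM on plate 524, a 1.49-fold range that lay almost wholly in the level per cell, since a read was found in 94.0% to 97.1% of cells. Its median cell held 858, 931, 1380 and 1226 CPM. Tie1 was at 771, 919, 629 and 746 CPM on plates 521 to 524, highest on plate 522 and lowest on plate 523, a 1.46-fold range. Ptprb was at 2477 CPM on plate 521 and at 1777, 1766 and 1747 CPM on the other 3, a 1.42-fold range; the counting intervals of plates 522 and 523 overlap (1768 to 1785 and 1758 to 1774 CPM), and that of plate 524 (1739 to 1755 CPM) lies below both. The 3 receptor genes thus each had a different leading plate.

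**Figure D1:**
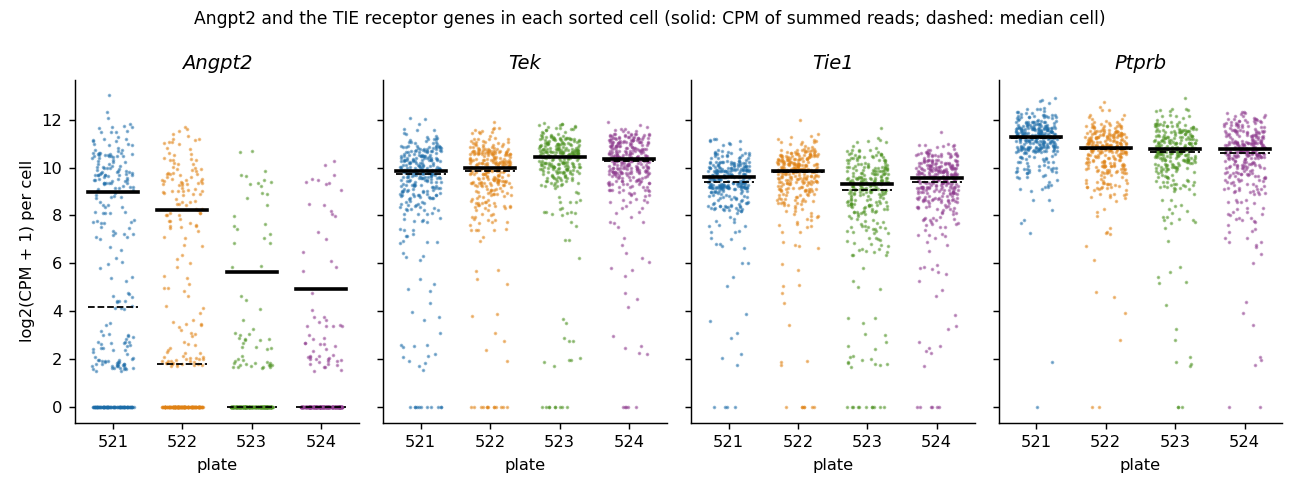
Each point is 1 cell, with log2(CPM + 1) on the vertical axis and plate on the horizontal axis, solid lines mark the CPM of summed reads and dashed lines the median cell. Angpt2 is at 0 in most cells of plates 523 and 524 and spreads up to 8259 CPM on plate 521, while Tek, Tie1 and Ptprb are present in nearly all cells of every plate.

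Cells were next set apart by arterial transcripts (a read of Bmx, an endothelial kinase, or Hey1, a Notch target) and venous transcripts (a read of Nr2f2, the venous fate factor, or Il1r1, the interleukin-1 receptor), at 100000 reads per cell. An arterial transcript alone was read in 363 cells, a venous one alone in 226, both kinds in 65 and neither in 533. The 4 classes had median depths of 364531, 360143, 356407 and 357410 reads. These transcripts mark a zone loosely, since 1 read is enough.

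Angpt2 was highest in cells with neither kind of transcript. With plates pooled, its level was 282 CPM there, 169 CPM in cells with an arterial transcript, 162 CPM in cells with a venous one and 228 CPM in cells with both. On plates 521 to 524, cells with both had 263, 362, 0 and 27.1 CPM of Angpt2 (28, 19, 5 and 13 cells), the lowest class on plates 521 and 523. In cells with neither transcript it was at 850, 376, 51.8 and 40.6 CPM on plates 521 to 524, and in arterial-transcript cells at 364, 234, 58.3 and 28.7 CPM. The log2 ratio of arterial over neither was -0.73, with -1.22, -0.68, 0.17 and -0.49 by plate, so plate 523 went the other way. In venous-transcript cells Angpt2 was at 341, 171, 22.5 and 0.587 CPM on plates 521 to 524, below the neither class on 4 of 4 plates (log2 ratio -0.80, with -1.31, -1.13, -1.17 and -4.71 by plate). On plates 523 and 524 these venous values rest on 3 and 4 cells with an Angpt2 read. At fixed depth Angpt2 was read in 36.2% of neither cells (interval 32.1 to 40.5%), 27.8% of arterial (23.3 to 32.7%), 27.4% of venous (21.7 to 33.7%) and 44.6% of both (32.3 to 57.5%). By plate, the share was 60.7%, 47.4%, 0% and 23.1% in cells with both. In neither cells it was 71%, 52.9%, 19.6% and 14.3%, so only plate 524 had the higher share in cells with both. Pooled over plates, arterial and venous cells were close in Angpt2 (log2 ratio 0.07), and this ratio turned to -0.06 without plate 522. Within plates it was 0.09, 0.45, 1.34 and 4.23 on plates 521 to 524, higher in arterial cells on 4 of 4 plates with a mean of 1.53, and the last 2 rest on the few venous cells with a read.

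Tek was modestly higher with arterial transcripts. It stood at 1262 CPM in arterial cells, 1076 CPM in venous cells, 1206 CPM in cells with both and 1115 CPM in cells with neither. By plate, arterial cells had 1126, 1135, 1418 and 1348 CPM and neither cells had 804, 909, 1373 and 1259 CPM. The log2 ratio of arterial over neither was 0.18, higher on 4 of 4 plates (0.49, 0.32, 0.05 and 0.10), and that of arterial over venous was 0.23, also higher on 4 of 4 plates (0.05 to 0.45). Venous over neither was -0.05 for Tek, with plates from -0.06 to 0.18. No member reached a 2-fold difference between these classes with plates pooled, and Angpt2 came nearest. Within plates, Angpt2 in venous over neither cells was past 2-fold on each plate, with a mean of -2.08.

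Tie1 was nearly level between arterial, venous and neither cells. Ptprb was modestly higher with a transcript of either kind, except on plate 521. Tie1 was at 757 CPM in arterial cells, 787 CPM in venous cells, 873 CPM in cells with both and 748 CPM in cells with neither, and its ratios to the neither class changed sign between plates (-0.04 to 0.13 for arterial, -0.12 to 0.18 for venous). Ptprb was at 2003, 2098, 2224 and 1811 CPM in arterial, venous, both and neither cells. Its ratio over neither was 0.15 for arterial cells and 0.21 for venous cells, with plate 521 opposite in each (-0.16 and -0.15). With plates pooled, the class differences of Tie1 and Ptprb were thus smaller than their differences between plates. For Ptprb this rested on plate 521, since its range between plates was 1.02-fold without that plate. On plate 524, Ptprb was at 2082 CPM in venous cells and 1568 CPM in neither cells.

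**Figure D2:**
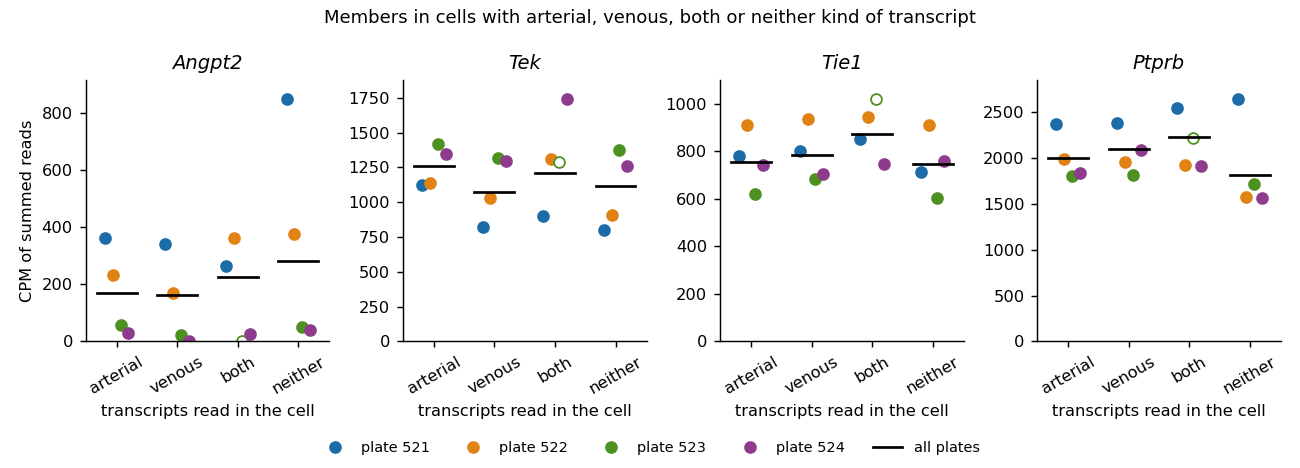
Points give the CPM of summed reads of each gene on 1 plate, for cells with arterial, venous, both or neither kind of transcript, the open point a class of 5 cells, and black lines all plates together. Angpt2 is highest in the neither class on plates 521, 522 and 524, and Tek is higher in arterial than in neither cells on each plate.

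Requiring both markers of a pair, a choice made after the data were seen, gave larger differences. In the 133 cells with Bmx and Hey1 together, Angpt2 was at 104 CPM, Tek at 1449 CPM and Ptprb at 2248 CPM. Angpt2 was at 199 CPM in the 150 cells with Bmx alone and at 223 CPM in the 145 cells with Hey1 alone. On plate 521, cells with Hey1 alone had 752 CPM of Angpt2, close to cells with no transcript of the pair (629 CPM), and cells with both had 130 CPM. On the other 3 plates, cells with both had 223, 26.6 and 32.4 CPM and cells with no transcript of the pair 319, 44.7 and 30.8 CPM, so plate 524 went slightly the other way. The 81 cells with Nr2f2 and Il1r1 together had 72.9 CPM of Angpt2 (179, 0.866, 0.861 and 16.8 CPM on plates 521 to 524). The 896 cells with no transcript of that pair had 236 CPM (606, 325, 54.3 and 35.8 CPM). Plates 522 to 524 held only 18, 18 and 16 cells with this pair, with an Angpt2 read in 11.1%, 0% and 18.8%. On plate 524 that share was above the 12.9% of cells with no transcript of the pair.

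The same was seen along the number of other arterial markers in a cell. This count used 11 arterial markers besides Bmx and Hey1, among them Gja5, Sema3g and Efnb2, and was also chosen after the data were seen. Angpt2 was at 237 CPM in the 491 cells with 0 of these markers, 264 CPM with 1, 214 CPM with 2 to 3 and 38.8 CPM in the 113 cells with 4 or more. In the last group it was at 37.3, 107, 0.391 and 0.217 CPM on plates 521 to 524, below the 0-marker cells on 4 of 4 plates. Tek moved the other way, with 1111, 1106, 1171 and 1499 CPM along the same 4 steps. In cells with 4 or more markers Tek was at 1444, 1581, 1470 and 1510 CPM on plates 521 to 524, against 777, 961, 1364 and 1313 CPM in cells with none. The plates were therefore close in Tek among the most arterial cells and apart among the rest. Ptprb was at 2476 CPM in cells with 4 or more arterial markers and 1911 CPM in cells with none, higher on 3 of 4 plates with plate 521 opposite (2285 against 2440 CPM). Tie1 was at 844 and 757 CPM.

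**Figure D3:**
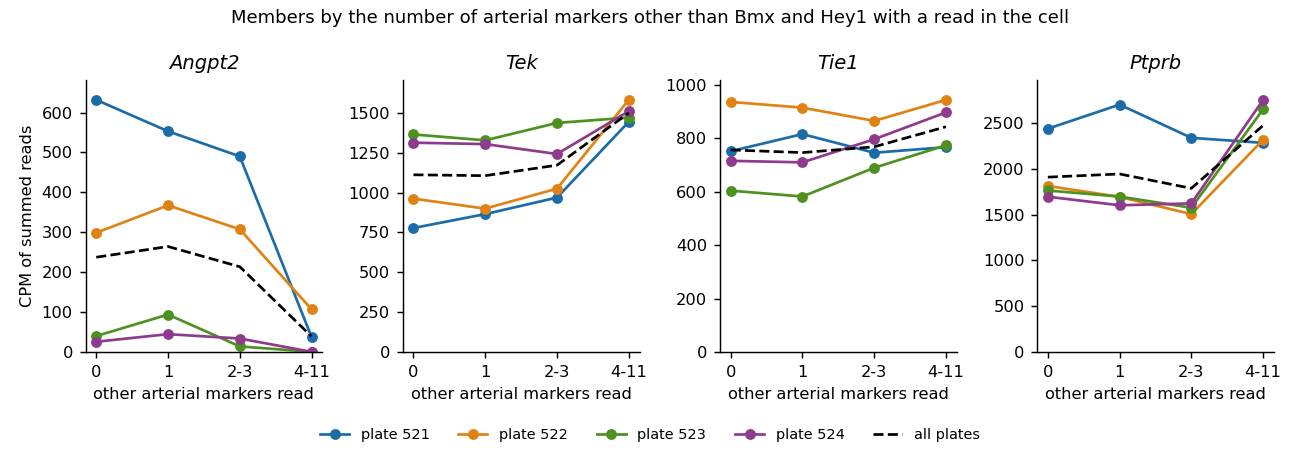
Lines give the CPM of summed reads of each gene on each plate by the number of arterial markers other than Bmx and Hey1 read in the cell, with all plates dashed. With 4 or more markers Angpt2 is at or below 107 CPM and Tek at or above 1444 CPM on every plate.

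Along venous markers the picture depended on the plate. By the number of 9 venous markers besides Nr2f2 and Il1r1, Angpt2 over all plates was at 40.3 CPM with 0 or 1, 148 CPM with 2, 264 CPM with 3 and 297 CPM with 4 or more. No single plate followed that order throughout. With 2, 3 and 4 or more, plate 521 had 551, 681 and 454 CPM and plate 522 had 309, 342 and 302 CPM. On plates 523 and 524, cells with 4 or more had 26.4 and 22.6 CPM. Those with 0 or 1 had 36.6 and 46.1 CPM there. Plate 521 had 3 cells and plate 522 had 16 cells with 0 or 1 of these markers, against 69 and 71 on the other 2, so the pooled order mixes plates. These venous markers and the pair together gave 3152, 2495, 1138 and 1039 CPM on plates 521 to 524, and their part in the Angpt2 values was not tested.

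Few genes passed 2-fold between these classes, both over all genes and over the pathway lists other than sprouting genes. Among all genes with at least 20 CPM on either side, 1.84% were 2-fold or more higher in arterial than in neither cells and 0.77% were lower (8576 genes, median log2 ratio 0.005). None of the 3 integrin genes, 13 adaptor and PI3K-AKT genes, 6 PTPRB partners, 2 FOXO factors, 7 FOXO-responsive genes, 4 Weibel-Palade genes and 8 factors reported at the Angpt2 promoter that were measured at this level passed 2-fold in either direction. Grb7, an adaptor that binds TIE2, was nearest, with 18.7 CPM in arterial and 38.1 CPM in neither cells (log2 ratio -0.99, lower on 4 of 4 plates). By the mean of within-plate ratios, where 2.12% of all genes were higher and 1.17% lower, Grb7 was at -1.09 and thus passed 2-fold, 1 of 13 adaptors. Akt2, an AKT kinase, was at 45.2 and 26.2 CPM (0.77, higher on 4 of 4 plates). Among promoter factors, Gata2 (0.57) and Epas1 (0.36), the endothelial GATA factor and HIF-2-alpha, were higher in arterial cells on 4 of 4 plates, and Hif1a (-0.59) was lower on 4 of 4 plates.

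The sprouting list held the exceptions, 2 of 13 members higher and 3 lower in arterial cells, against 1.84% and 0.77% of all genes. Igfbp3, an IGF-binding protein, was at 96.2 against 10.6 CPM (log2 ratio 3.07, 2.03 to 6.54 by plate). Apln was at 35.5 against 172 CPM (-2.25), with plate 523, where it had 1 read in all, at 0.04. Plvap, the diaphragm protein of fenestrated endothelium, had a ratio of 1.91 with plate 524 opposite, and Trp53i11 of -1.15 with plates 523 and 524 opposite (2.93 and 3.26). Adm, named after its value was seen, was the remaining lower gene. The list's median was 0.02, close to that of all genes, and its members went in both directions. By the mean within plates 3 were higher and 3 lower, against 2.12% and 1.17% of all genes.

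Between venous and neither cells, 1.48% of 8584 genes were 2-fold or more higher and 1.04% lower (median log2 ratio 0.01). With plates pooled, only the Weibel-Palade list had a member past 2-fold, 1 of 4: Vwf, the main cargo of these bodies and a venous marker, at 1570 against 606 CPM (1.37, with 0.46, 0.95, 2.37 and 3.59 by plate). By the mean of within-plate ratios, where 1.42% of all genes were higher and 2.12% lower, Vwf was again higher (1.84), Angpt2 itself was lower, and of 11 sprouting genes Trp53i11 was higher (1.33, with plates 521 and 522 opposite) and Nid2 lower (-1.03). Dll4, the Notch ligand of tip and arterial cells, was at 128 against 221 CPM (-0.78, lower on 4 of 4 plates). Grb7 was at 61.9 against 38.1 CPM (0.69), higher on 4 of 4 plates, opposite to its arterial ratio.

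Finally, cells with an Angpt2 read at fixed depth were set against all other cells. There were 385 such cells, 174, 129, 43 and 39 on plates 521 to 524, and 802 others, with median depths of 361261 and 360833 reads. Angpt2 itself made the split and is not a result. An arterial transcript alone was read in 26.2% of Angpt2-read cells and 32.7% of others, a venous one alone in 16.1% and 20.4%, both in 7.53% and 4.49%, and neither in 50.1% and 42.4%. Tek, Tie1 and Ptprb were all read in 90.4% of Angpt2-read cells and in 90.5% of the others. Most cells with the ligand's transcript thus also held those of TIE2, TIE1 and VE-PTP.

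Tek was lower in cells with Angpt2 on every plate. Over all cells it was at 899 CPM with an Angpt2 read and 1282 CPM without, a log2 ratio of -0.51. By plate it was 788 against 1099 CPM, 870 against 1141 CPM, 1212 against 1407 CPM and 1134 against 1337 CPM on plates 521 to 524, for ratios of -0.48, -0.39, -0.21 and -0.24. The mean of these 4 within-plate ratios was -0.33, smaller than the pooled ratio, and plates 521 and 522 held most of the Angpt2-read cells and the least Tek. Along the Angpt2 level Tek stepped down on plates 521 and 522: plate 521 had 1099 CPM in cells without a read, 952 CPM under 100 CPM of Angpt2, 773 CPM at 100 to 1000 and 696 CPM at 1000 or more. Plate 522 had 1141, 1038, 819 and 798 CPM along the same steps. On plates 523 and 524 the highest step held 2 cells each, and no order could be read there. The share of cells with a Tek read was 94.3% and 95.4%, so the difference lay in the level per cell.

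Tie1 and Ptprb showed no such common direction. Tie1 was at 755 CPM with and 769 CPM without an Angpt2 read (log2 ratio -0.03), lower on plates 521 and 522 (-0.25 and -0.24) and higher on plates 523 and 524 (0.12 and 0.04). Ptprb was at 2002 and 1921 CPM (0.06), with 0.05, -0.12, -0.32 and -0.45 by plate. Its within-plate mean was -0.21 and its pooled ratio without plate 521 was -0.20, so the pooled sign came from plate 521, which was high in both Ptprb and Angpt2.

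**Figure D4:**
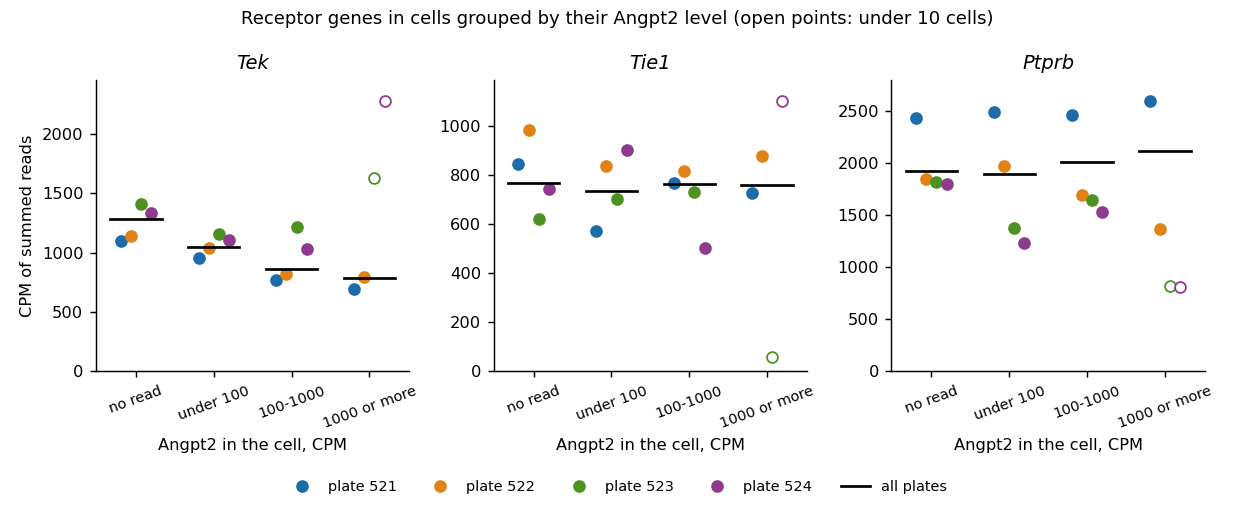
Points give the CPM of summed reads of Tek, Tie1 and Ptprb on each plate for cells grouped by their Angpt2 level in CPM, open points are groups of under 10 cells, and black lines all plates. With plates pooled, Tek goes from 1282 to 789 CPM over the 4 groups, and Tie1 stays between 736 and 769 CPM. The highest group holds 55, 27, 2 and 2 cells of plates 521 to 524, so the pooled values mix plates. Tek is at 1624 and 2274 CPM in the 2 cells each of plates 523 and 524.

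Of 8584 genes measured, 1.32% were 2-fold or more higher in Angpt2-read cells and 1.55% were lower (median log2 ratio 0.001). By the mean of within-plate ratios, chosen after the data were seen, 0.419% were higher and 3.03% lower (median -0.04); 116 genes passed on both, in the same direction. Fewer genes were thus higher within plates than in the pooled cells, and more were lower. Of the 246 genes past 2-fold when pooled, 123 had the same direction on each plate, and the genes named here are the 12 highest and 12 lowest of those read in at least 10% of cells of the higher side.

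Among the higher genes, Kit, the stem cell factor receptor, stood at 51.1 against 4.87 CPM (log2 ratio 3.15, 1.85 to 4.45 by plate) and was read in 16.4% against 2.24% of cells. Ablim3, an actin-binding protein, was at 33.0 against 3.61 CPM (2.88), and Ica1l at 173 against 37.8 CPM (2.17). Adm, the vasodilator peptide adrenomedullin, was at 169 against 40.1 CPM (2.05, 0.95 to 1.68 by plate) and was read in 42.6% against 13.0% of cells. The others were Fam131a (1.88), Osgin1 (1.66), the collagen IV chain Col4a3 (1.59), the ganglioside synthase St3gal5 (1.49), the phosphatase Pdp1 (1.30), the growth factor-binding Crim1 (1.30), the sulfotransferase Chst2 (1.29) and Fam13a (1.28). For Adm, Osgin1, Col4a3 and Crim1 the pooled ratio lay above every plate's own. Adm itself was at 172, 114, 24.3 and 15.7 CPM on plates 521 to 524. The mean of within-plate ratios was under 2-fold for Crim1 (0.58, with 0.208 to 0.996 by plate), Fam13a (0.82) and Pdp1 (0.83).

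Among the lower genes, Trpv4, a calcium channel, was at 3.95 against 35.5 CPM (-2.88, -5.06 to -2.27 by plate). Alpl, tissue-nonspecific alkaline phosphatase, was at 36.0 against 243 CPM (-2.72, -2.96 to -1.62) and was read in 7.53% against 28.4% of cells. Gja4, the arterial gap junction protein connexin 37, was at 9.48 against 59.9 CPM (-2.54, -4.93 to -2.87). Stmn2, which like Gja4 is on the arterial marker list, was at 7.09 against 55.6 CPM (-2.81). The others were Crispld1 (-2.56), Tmem100 (-2.54), Arhgef25 (-2.51), the matrix protein Fbln2 (-2.34), the phosphatase Ptprr (-2.33), Rasd1 (-2.20), Aif1l (-2.20) and the calcium pump Atp2a3 (-2.15). For Rasd1 every plate's own ratio was weaker than the pooled one (-1.15 to -0.49), and its within-plate mean of -0.77 was under 2-fold. The 13 arterial markers together gave 352 CPM in Angpt2-read cells (323 to 423 by plate) and 811 CPM in the others (648 to 1229), lower on each plate. The 11 venous markers were also lower on each plate. They gave 2861 against 3529 CPM, 2201 against 2736 CPM, 941 against 1174 CPM and 901 against 1057 CPM on plates 521 to 524. With plates pooled the venous sum was the other way, at 2226 and 1823 CPM. Capillary markers, 10 genes such as Mfsd2a, summed to 8420 and 8994 CPM with plates pooled. By plate they were the other way on each: 7348 against 6302 CPM, 8336 against 8064 CPM, 10648 against 9894 CPM and 11029 against 10029 CPM on plates 521 to 524.

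**Figure D5:**
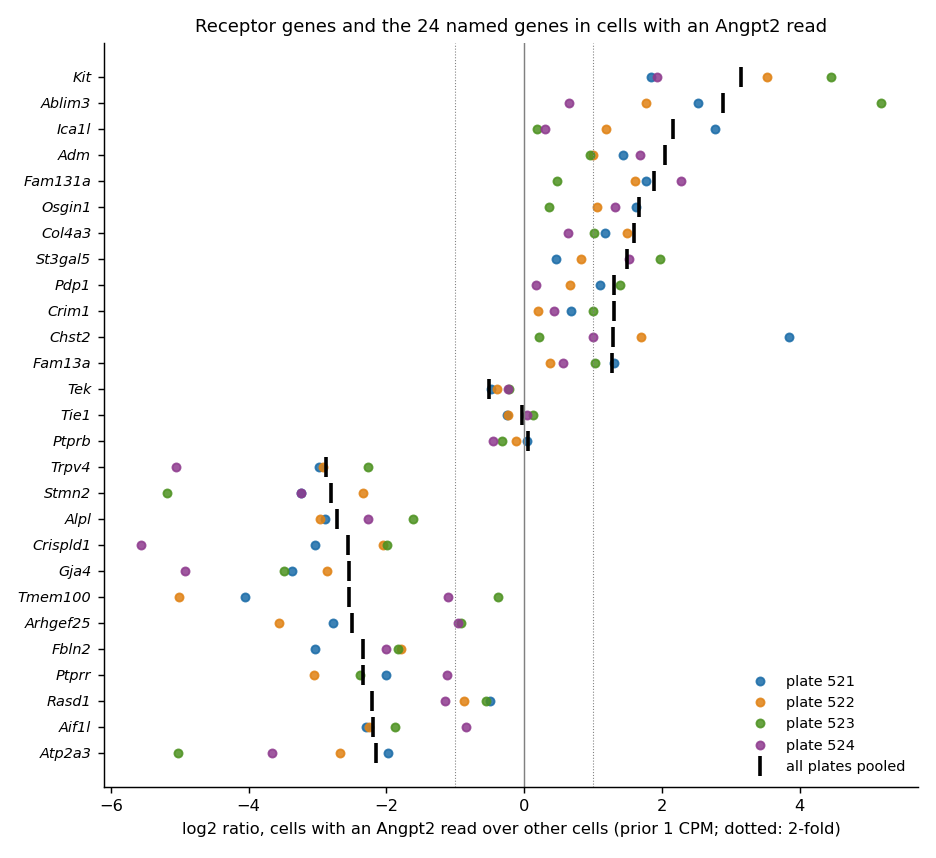
Each row is a gene, points give the log2 ratio of Angpt2-read over other cells on 1 plate and black ticks the pooled ratio, with dotted lines at 2-fold. The 12 higher and 12 lower genes were chosen to have the same side on all 4 plates, and Tek lies between -0.48 and -0.21.

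Pathway lists other than sprouting genes had no member past 2-fold in the Angpt2 split, against the 1.32% and 1.55% of all genes. Lists this small would hold few or none at these shares. The integrins that angiopoietins can bind had 0 of 3 (median log2 ratio 0.04): Itga5 was at 91.0 against 55.1 CPM (0.71), with plate 524 opposite. Adaptors and PI3K-AKT genes had 0 of 13 (median 0.03): Grb7 was again furthest, at 23.6 against 41.1 CPM (-0.78), with plate 523 opposite, and Shc1 was at 143 against 113 CPM (0.34). Partners of PTPRB had 0 of 6 (median -0.05). Jup, plakoglobin of endothelial junctions, was at 139 against 218 CPM (-0.65), and Kdr, VEGF receptor 2, at 752 against 604 CPM (0.32), with plate 524 opposite in each. Cdh5, VE-cadherin, was at 430 against 379 CPM (0.18).

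FOXO1, the factor placed upstream of Angpt2 in the textbook pathway, differed little at the RNA level. Foxo1 was at 217 CPM in Angpt2-read cells and 191 CPM in the others (0.19), with ratios of -0.12, 0.63, 0.03 and -0.29 by plate. Of 7 FOXO-responsive genes measured, 0 passed 2-fold (median 0.10): Ccng2 was at 116 against 82.1 CPM (0.50, higher on 4 of 4 plates), and Klf2, also the main flow-responsive factor, at 314 against 417 CPM (-0.41, lower on 4 of 4 plates). Factors reported at the Angpt2 promoter had 0 of 8 (median -0.05). Wwtr1, the YAP partner TAZ, was at 250 against 175 CPM (0.51) with plate 524 opposite, and Epas1 at 1510 against 1753 CPM (-0.22), lower on 4 of 4 plates. RNA levels do not show where these factors sit in the cell.

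The Weibel-Palade list had 0 of 4 (median 0.22). Vwf was at 1152 CPM in Angpt2-read and 682 CPM in other cells (0.76), but its plate ratios were 0.02, 0.13, -0.70 and -0.41, and its level by plate was 1582, 1094, 401 and 259 CPM. The pooled difference of Vwf therefore followed the plates and was not seen within plates 523 and 524. Vwf was also the gene most like Ptprb in its pattern over cells.

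Of the sprouting list, 5 of 13 members were 2-fold or more higher in Angpt2-read cells and 0 lower (median log2 ratio 0.64). Among all genes these shares were 1.32% and 1.55%. By the mean within plates 2 members were higher and 2 lower (median 0.24), against 0.419% and 3.03% of all genes. Adm (above) and Lamb1, a laminin chain, kept their direction on 4 of 4 plates, Lamb1 at 20.5 against 3.62 CPM (2.22, 1.09 to 2.19 by plate). Apln was at 353 against 33.9 CPM (3.34) with ratios of 2.12 and 2.39 on plates 521 and 522, but on plates 523 and 524 it had 0 CPM in Angpt2-read cells and 0.0115 and 4.29 CPM in the others. Trp53i11 (2.57) and Mcam (1.07), an adhesion molecule, were likewise higher on plates 521 and 522 and lower on plates 523 and 524. Dll4, at 293 against 188 CPM (0.64), Nid2, a basement membrane nidogen (0.92), and Plaur, the urokinase receptor (0.48), were under 2-fold and higher on 4 of 4 plates. Igfbp3 was lower on 4 of 4 plates (-0.94 pooled, -5.27 to -1.10 by plate). Lamb1 and Mcam, both counted among the higher genes, were at 9.04 and 16.1 CPM over all cells. They passed the 20 CPM filter only through the Angpt2-read cells, where they were higher. Mcam, Dll4, Nid2, Plaur and Igfbp3 were named here after their values were seen. Apln, Trp53i11 and Mcam were thus higher with Angpt2 on plates 521 and 522 alone, and plates 523 and 524 had 43 and 39 cells with an Angpt2 read.

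Genes most like each member were taken from the Pearson correlation of log2(CPM + 1) over 1187 cells after plate means were removed, among 10003 other genes, keeping those positive on each plate. Cells of 1 plate share depth and handling, the correlations were low, and they are given as a description. For Angpt2 they were Gm15270 and Ctgf (each 0.29), Gm29408 (0.27), Adm (0.26), Gm29371 (0.26) and Ivns1abp (0.25). Gm15270 lies opposite Ctgf (Ccn2 in GENCODE M21), on chromosome 10 at 24549441 to 24597108, minus strand, with shared exon sequence, so their reads may not be separate. Ctgf, a matricellular target of YAP, was at 669 against 178 CPM in Angpt2-read and other cells, but at 35.4 and 35.6 CPM on plate 524. Ivns1abp was at 1017 against 709 CPM and was higher in Angpt2-read cells on each plate. Apln had the higher correlation of 0.32 and fell outside the rule, with 0.43, 0.31, -0.02 and -0.05 by plate.

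The members themselves were only weakly related over cells. Angpt2 and Tek correlated at -0.12 (-0.22, -0.11, -0.04 and -0.0002 by plate), Tek and Ptprb at 0.11, Tek and Tie1 at 0.08, and Tie1 and Ptprb at 0.02. The genes most like Tek were Pltp (0.23), Ly6a (0.21), Ctsa (0.20), Slc9a3r2 (0.19), Pcp4l1 (0.19) and Glul (0.17). Those most like Ptprb were Vwf (0.21), Rb1, Sptan1, Abcc4, Tm6sf1 and Cst3 (each 0.16). For Tie1 no correlation was above 0.15, the highest being that of F11r, the junction protein JAM-A.

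Markers of other cells gave these values beside the Angpt2 split. The 10 pericyte markers, all read, summed to 30.7 CPM in Angpt2-read cells and 78.7 CPM in the others. By plate these sums were 8.90 against 28.8, 17.6 against 20.2, 112 against 145 and 78.8 against 76.4 CPM, so plate 524 was slightly opposite. The 8 smooth muscle markers summed to 11.9 and 24.3 CPM, lower in Angpt2-read cells on each plate, with Des at 0 in them. The 5 erythroid markers summed to 32.7 and 7.52 CPM, with plate 521 opposite (27.5 against 33.4 CPM), and the 5 choroid plexus markers to 610 and 290 CPM, of which Enpp2 made 590 and 270 CPM with Folr1 at 0 in Angpt2-read cells; the choroid plexus sum was opposite on plate 523 (149 against 207 CPM). Microglial markers summed to 143 and 103 CPM over 8 genes, with plates 521 (138 against 142 CPM) and 524 (54.7 against 65.4 CPM) opposite. Their part in the differences was not tested; without the cells holding 3 or more markers of another type, the Tek ratio stayed at -0.51. The endothelial markers were level, at 13092 and 13164 CPM.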

How the data were processed

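Full-length cDNA of single sorted cells was sequenced, and the deposited table holds the authors' whole-number read counts per gene and cell. Per the submitters' processing notes, the tools were Subread 1.4.6-p5, featureCounts, SAMtools 0.1.18 and TopHat2 2.1.1, and the builds GRCm38 and mm10; their roles and the strand setting are not given in the sources used here. None of the 1187 columns was matched to a labelled sample, and the comparison of genotypes was not made. The cells form 1 pooled sample, and no test was run.

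Counts were summed over cells and scaled to counts per 1000000 reads (CPM) with Python 3.11.15, numpy 2.4.6, pandas 2.3.3 and scipy 1.17.1. Shares of cells and cell classes used each cell thinned to 100000 reads, which lost no cell; shares and counts carry exact Clopper-Pearson and Poisson intervals at 95%. The limit beside 0 cells is 3 counts of the total. Log2 ratios carry a prior of 1 CPM on both sides, and a gene counted as past the fold at 2-fold with at least 20 CPM on either side. A cell held markers of another type when 3 or more were at 100 CPM. No doublet caller was run.

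Named genes were the members, the listed ligands, up to 4 members of a list with the largest ratios, the 12 highest and 12 lowest genes of the Angpt2 split (20 CPM, a read in 10% of cells of the higher side, same direction on each plate), and the 6 most correlated genes per member, read in 10% of cells. The members, lists and rules were chosen with earlier results of these data known. Alternatives covered scaling, thinning, marker and read thresholds, filters, priors, cells with other markers, deep cells and each plate left out.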

Additional observations from a re-analysis of the deposited data

How the results depend on the processing

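Among the alternative values for the levels, ratios and gene counts of the members and classes, 334 stayed, 36 moved and 1 reversed. Levels and ratios stayed if they lay within 1 standard deviation between plates of the main value. Gene counts and folds between plates stayed if they lay within a fixed fold of it. For Angpt2 that standard deviation (227 CPM) was above its level over all cells (221 CPM), and 0 of 9 alternative levels counted as moved. Leaving out 1 plate at a time gave a range of 9.98 to 17.0-fold for Angpt2 between plates, 95 to 111 genes lower in arterial cells (66 with all plates), 160 to 216 higher and 128 to 162 lower in venous cells (127 and 89), 106 to 189 higher in Angpt2-read cells (113), -0.20 to 0.15 for Ptprb in the Angpt2 split, and -0.056 to 0.51 for Angpt2 in arterial over venous cells. The first marker of a pair alone gave log2 ratios of 0.16 for Tie1 in arterial over neither, 0.077 for Tie1 and 0.12 for Ptprb in arterial over venous cells, and 115 genes lower in arterial cells. The second marker alone gave -0.065, -0.20 and -0.22 for the same 3 ratios, 0.068 for Tek in venous over neither, and a reversed median of -0.031 for the 3 receptor genes in arterial over neither. Both markers together gave 0.14 for Tie1 in arterial and 0.23 in venous cells over neither, 283 genes higher and 225 lower in arterial cells, and 278 higher and 342 lower in venous cells. Means of within-plate ratios gave 0.049 for Tek in venous over neither, -0.33 for Tek and -0.21 for Ptprb in the Angpt2 split, and 100 lower genes for arterial, 182 lower for venous, and 36 higher and 260 lower for Angpt2-read cells. A filter of 5 CPM gave 275 higher and 346 lower genes in the Angpt2 split, no filter 548 and 727, and a split by any Angpt2 read at full depth 86 lower. The causes were not tested, except that a looser filter counts more genes by construction. The within-plate means and paired markers were chosen after seeing the data. Of the alternative values for the lists and named genes, 822 stayed, 63 moved and 1 reversed. Of the 6 genes most like a member, alternatives shared 3 to 5 for Angpt2, 1 to 6 for Tek, 1 to 6 for Tie1 and 3 to 6 for Ptprb. No paired analysis was possible because no column of the table carries a genotype or replicate number. At this depth a missing Angpt2 read does not show that a cell lacks the transcript: 40.9% of cells had one at full depth against 32.4% at fixed depth.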

Other observations

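Genes with the lowest correlation to a member were looked at after the values were seen. Slc6a6, the taurine transporter of the blood-brain barrier, had the most negative correlation with Angpt2 over cells within plates (-0.43, with -0.48, -0.47, -0.30 and -0.18 on plates 521 to 524). It stood at 947 CPM in cells with an Angpt2 read and 2519 CPM in the others. On plate 521 it was at 514 against 2007 CPM, on plate 522 at 922 against 2469 CPM, on plate 523 at 1625 against 2535 CPM and on plate 524 at 2248 against 2786 CPM. Its level rose from plate 521 to plate 524 in both groups, and differed less between plates in cells without an Angpt2 read.

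Ltbp4, which binds latent TGF-beta, followed at -0.31 and was at 240 against 626 CPM, lower in Angpt2-read cells on each plate. Pltp, the phospholipid transfer protein (-0.31), and the scaffold gene Slc9a3r2 (-0.26) were next, and both were also among the 6 genes most like Tek. Pltp was at 2253 against 3056 CPM and Slc9a3r2 at 511 against 976 CPM; on plate 524 both were slightly higher in Angpt2-read cells (3300 against 3260 CPM and 1168 against 1126 CPM). Adm and Ctgf, on the list of genes most like Angpt2, were among the 6 genes least like Tek (-0.13 and -0.12). The correlations are low, cells of a plate share depth and handling, and no explanation was tested.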
